A study of Mus musculus with 6 samples.

Results

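Glutathione and redox defence genes encode the enzymes that make and recycle glutathione, use it or thioredoxin to remove peroxides and electrophiles, and dismutate superoxide, together with the Nrf2 regulator that controls many of them. The set held 40 genes named by their symbols, of which 37 were measured, among 18193 measured genes in all. Each was represented by 1 probe set, namely the brightest on average over the 6 arrays of those annotated with exactly 1 symbol. Of the 40, Prdx1, Prdx5 and Prdx6 were not analysed here. The 5 probe sets that list Prdx1 also list Gm21399, and Prdx5 and Prdx6 were not matched to a probe set.

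Astrocytes are known to make and export glutathione, whose products neurons take up as precursors of their own. Glutathione is made from glutamate, cysteine and glycine by glutamate-cysteine ligase and glutathione synthetase, is oxidised by peroxidases and transferred to electrophiles by glutathione transferases, and is returned to its reduced form by glutathione reductase. Thioredoxin and the peroxiredoxins form a parallel thiol system. The transcription factor Nrf2, encoded by Nfe2l2, is held for degradation by Keap1 and, when released, acts at antioxidant response elements of genes in both systems.

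The series concerned the galectins of the lesioned brain and compared 2 groups of 3 Affymetrix arrays, each with RNA of green fluorescent cells sorted from a pool of about 15 mice. The reactive group came from TgN(hGFAP-EGFP) GFEA mice, whose fluorescence is driven by the human GFAP promoter, 5 days after a stab injury in the grey matter of the somatosensory cortex, of 0.7 mm depth and 1 to 1.2 mm length. The non-reactive group came from the matching region of uninjured Tg(Aldh1l1-eGFP)OFC789Gsat mice, in which the fluorescent protein reports Aldh1l1. All mice were of the FVB/N background and 2 to 3 months old, and their sex was not determined. Injury and reporter line coincided, so their parts in any difference cannot be told apart. In such pooled samples fewer cells of a type and less RNA per cell cannot be told apart either.

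Pairs of reactive arrays correlated at 0.901 to 0.921, pairs of non-reactive arrays at 0.95 to 0.963 and mixed pairs at 0.889 to 0.93. All 12 listed astrocyte markers had means above 4.74, the median of all probe set means on the log2 scale, and their mean level was 9.27 to 9.60 on the reactive and 10.71 to 11.17 on the non-reactive arrays. Of these markers 5 fell and 1, Gfap, rose (limma, adjusted p under 0.05). Without overlap 11 of the 12 were lower, against 8.2% of all genes, and 10 of these differed at least 2-fold, against 4.42%. Of 17 measured microglia and macrophage markers 7 rose and 12 were higher without overlap, against 13.5% of all genes. The mean level of the 17 was 9.39 to 9.72 against 7.28 to 7.59, and 16 of them had means above the median. Of 10 blood leukocyte markers 4 rose (6.83 to 7.67 against 4.75 to 5.37), and of 12 oligodendrocyte markers 1 rose (9.19 to 9.78 against 7.85 to 8.70). The 10 neuronal markers all had means above the median, and their mean level was 7.96 to 9.59 against 8.91 to 9.41. The differences between 3′ and 5′ control probe sets were 4.17 against 5.19 for Gapdh, 3.38 against 5.05 for Actb and 1.44 against 3.46 for Pcx (log2, mean of the reactive against the non-reactive arrays). All values below therefore compare sorted mixtures that also differed in markers of other cells and in RNA control ratios, and the part of these in the differences was not tested.

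No redox defence gene passed the test. Of the 37 measured genes 0 rose and 0 fell (limma, Benjamini-Hochberg over all probe sets, adjusted p under 0.05), where 0.39% of all genes rose and 0.561% fell. The smallest adjusted p among them in limma was 0.121, for Txn1. At an unadjusted p under 0.05 there were 9 of the 37 (24.3%), against 15% of all genes. Of these 9, 6 were higher in the reactive arrays (16.2% of the genes, against 7.88% of all) and 3 lower (8.11%, against 7.13%). The groups did not overlap for 7 genes that were higher, against 13.5% of all genes, and for 5 that were lower, against 8.2%. A difference of at least 2-fold besides was present in 3 of the higher genes, Txn1, Txnrd1 and Prdx4, against 3.7% of all genes, and in 2 of the lower, Gclm and Gstm1, against 4.42%. Of the 37 genes 23 had log2 differences above 0 (62.2%, against 60.7% of all genes) and 14 below 0, against 39.3% of all, and their median was 0.31, against 0.12 over all genes. Without reactive replicate 3 the median was 0.18, and with the mean of each gene's probe sets 0.14. The genes were also brighter than most, 31 of the 37 (83.8%) having means above the median, against 66.6% of all genes.

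**Figure D1:**
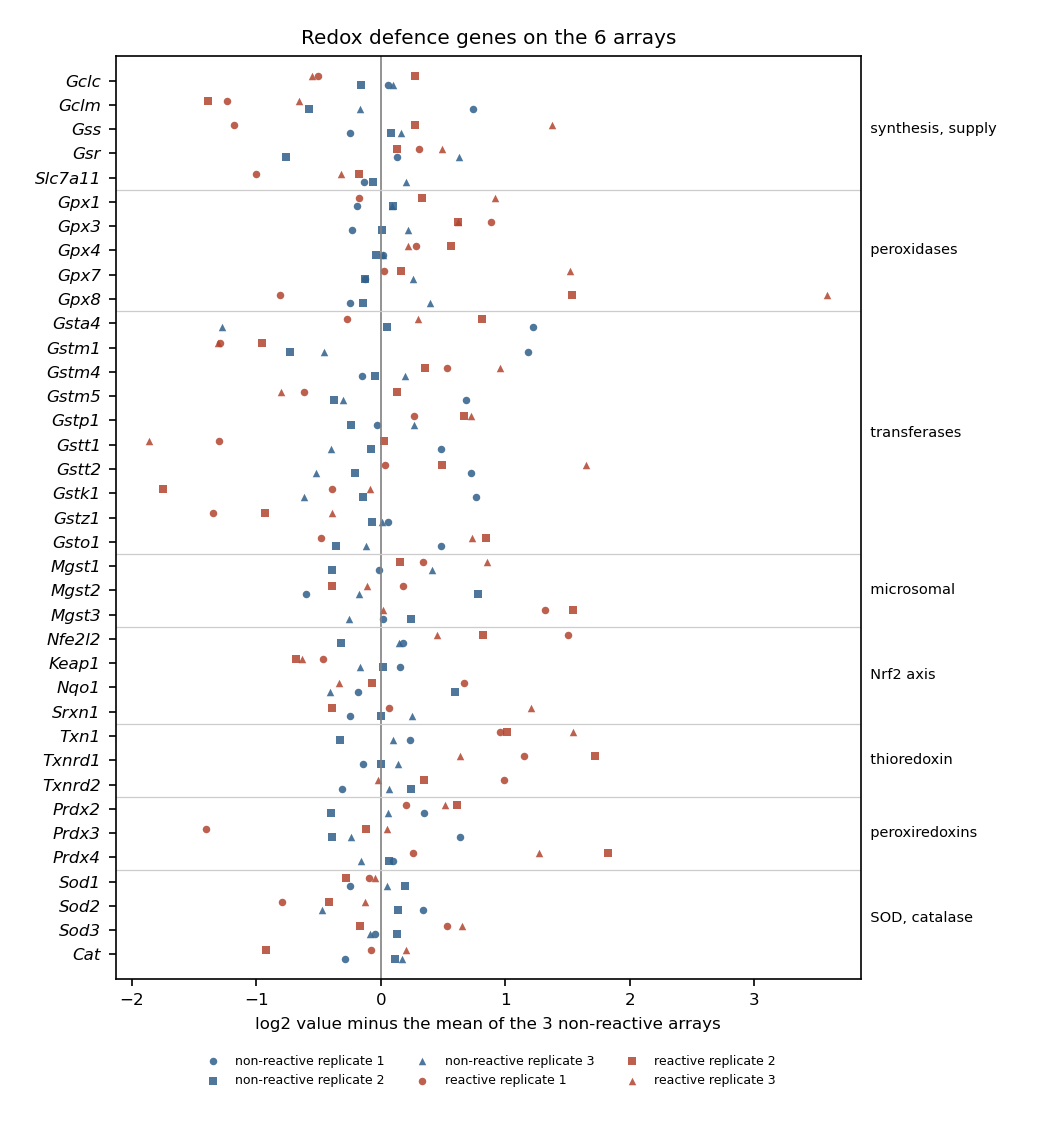
Each point is the log2 value of a gene on 1 array minus that gene's mean over the 3 non-reactive arrays, for the 37 measured genes ordered by role, with reactive arrays in red, non-reactive arrays in blue and a marker shape for each replicate number. Reactive replicate 3 lies farthest to the right for Gpx8. It also lies well to the right for Gpx7, Gstt2, Txn1 and Gss, among others. The reactive points spread more widely (by SD) than the non-reactive ones for 23 of the 37 genes.

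Nfe2l2, which encodes Nrf2, was higher and Keap1 lower on the reactive arrays at their representative probe sets, and neither passed the test. The element that Nrf2 binds was searched as the core TGACNNNGC on both strands, in RefSeq windows (build GRCm38.p6) from 250 bases before to 50 after each gene's start. Windows were found for 34 of the 40 genes. A match was present in 8 of the 34 (23.5%), against 13.99% of the 27025 genes with a window, and in 8 of their 43 windows (18.6%), against 12.4% of all 32851 windows. The letters found are shown because many genes of this pathway are known as Nrf2 targets. They read as follows in the direction of the core, with the fixed letters in capitals.
Gclm: TGACggtGC
Gstm5: TGACcacGC
Mgst1: TGACcgtGC
Nfe2l2: TGACtccGC
Srxn1: TGACctaGC
Txnrd1: TGACaaaGC
Prdx1: TGACtcaGC
Sod1: TGACcacGC
These are matches of letters and not shown to be bound. Nor is a gene without a match shown to lack the element, since only these windows and this core were searched. Among the 7 measured genes with a match, 4 had log2 differences above 0 and 3 below, and among the 25 measured genes with a window and no match 15 were above 0 and 10 below. Of all measured genes 60.7% were above 0. Of 79 other genes of the pathway with a window, 16 (20.3%) held a match.

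The stretch from 250 to 71 bases before the start is printed for the 3 matched genes whose groups did not overlap, Nfe2l2, Gclm and Txnrd1. The match stands in capitals, read on the gene's own strand, so that matches on the opposite strand appear as their reverse complement. For Txnrd1 the window shown is the only one of its 3 that held a match.
Nfe2l2 promoter, chr2:75704734-75704913, - strand: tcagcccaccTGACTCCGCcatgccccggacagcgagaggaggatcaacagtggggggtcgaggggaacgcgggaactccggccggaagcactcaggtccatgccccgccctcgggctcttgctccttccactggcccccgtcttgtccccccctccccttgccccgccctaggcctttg
Gclm promoter, chr3:122245307-122245486, + strand: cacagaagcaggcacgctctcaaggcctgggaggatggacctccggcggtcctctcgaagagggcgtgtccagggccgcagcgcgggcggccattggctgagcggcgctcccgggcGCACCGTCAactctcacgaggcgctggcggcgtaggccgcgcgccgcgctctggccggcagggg
Txnrd1 promoter, chr10:82858956-82859135, + strand: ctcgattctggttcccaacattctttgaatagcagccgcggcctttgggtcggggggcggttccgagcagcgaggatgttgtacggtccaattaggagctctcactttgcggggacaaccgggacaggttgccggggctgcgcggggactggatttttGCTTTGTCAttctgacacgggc
The first base of the match lay 240 bases before the start in Nfe2l2, 134 in Gclm and 92 in Txnrd1. Of these 3 genes, Nfe2l2 and Txnrd1 were higher in the reactive arrays and Gclm was lower.

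Nfe2l2 read 8.99, 8.30 and 7.93 (log2) on reactive replicates 1, 2 and 3 and 7.66, 7.16 and 7.62 on non-reactive replicates 1, 2 and 3. All 3 reactive values lay above the non-reactive ones, replicate 3 by the smallest margin. Nfe2l2 differed by 0.93 on the log2 scale (SE 0.32, 95% interval 0.16 to 1.69), and the limma adjusted p was 0.297. Its other probe set, which reads dimmer, differed by 1.39 (SE 0.41) in the same direction, again without overlap.

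Keap1, the adaptor that targets Nrf2 for degradation, read 9.81, 9.60 and 9.64 on the reactive and 10.43, 10.29 and 10.11 on the non-reactive arrays. The groups did not overlap and the reactive values were the lower ones. Its log2 difference was -0.59 (SE 0.20, 95% interval -1.06 to -0.13, limma adjusted p = 0.274). The other Keap1 probe set went the opposite way, with a log2 difference of 0.88 (SE 0.30) and groups that did not overlap either, so the direction of Keap1 depended on the probe set, and the mean of both gave 0.14. Nqo1, a quinone reductase and textbook Nrf2 target, differed by 0.09 (95% interval -0.80 to 0.98), with group means of 4.70 and 4.61, both under the 4.74 given above as the median. Srxn1, which repairs overoxidised peroxiredoxins, differed by 0.30 (95% interval -0.71 to 1.30), and by -0.16 without reactive replicate 3.

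**Figure D2:**
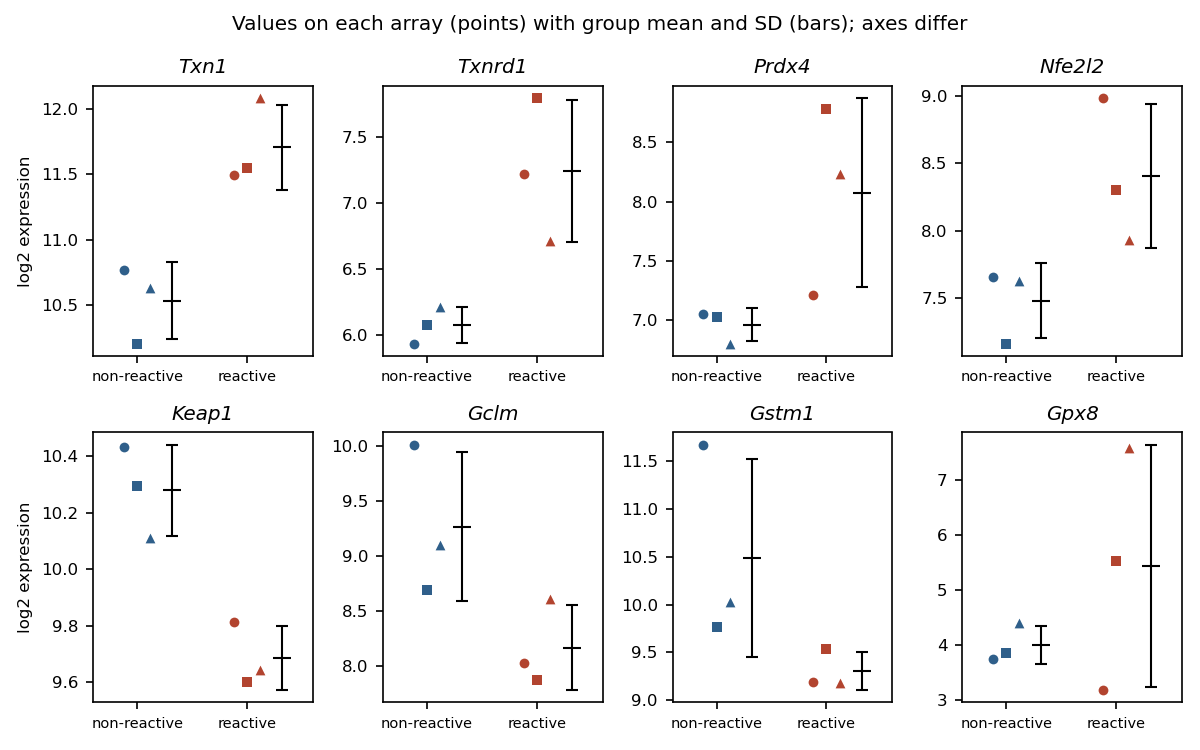
Log2 expression of 8 genes on each array, non-reactive arrays in blue and reactive arrays in red, with the group mean and SD as a black bar at the right of each group; the vertical axes differ between genes and do not start at 0. The groups do not overlap for 7 of them, whereas the 3 reactive values of Gpx8 run from 3.18 to 7.58.

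In the thioredoxin system all 3 measured genes had log2 differences above 0 at their representative probe sets, as did 60.7% of all genes. Txn1, thioredoxin itself, read 11.49, 11.55 and 12.08 on the reactive arrays and 10.77, 10.21 and 10.63 on the non-reactive arrays. The lowest reactive value stood above the highest non-reactive one, and both groups were tight. Txn1 thus differed by 1.17 on the log2 scale, a 2.25-fold difference (SE 0.26, 95% interval 0.55 to 1.80, limma adjusted p = 0.121). The dimmer Txn1 probe set differed by 0.68 (SE 0.37), with groups that overlapped.

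Txnrd1, the cytosolic reductase that regenerates thioredoxin, read 7.23, 7.80 and 6.72 on the reactive and 5.93, 6.08 and 6.21 on the non-reactive arrays. The reactive values were all higher and more spread. The log2 difference was 1.17 (SE 0.30, 95% interval 0.44 to 1.90, limma adjusted p = 0.172). The other 2 probe sets gave 0.09 (SE 0.18) and -0.59 (SE 0.39), and the mean of the 3 gave 0.22. Txnrd2, the mitochondrial reductase, differed by 0.44 (95% interval -0.31 to 1.19), with 4 probe sets between -0.16 and 0.87.

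Of the 3 measured peroxiredoxins, thiol peroxidases that are recycled by thioredoxin, Prdx4 differed most. Prdx4, the form of the endoplasmic reticulum, read 7.22, 8.78 and 8.23 on the reactive and 7.06, 7.03 and 6.80 on the non-reactive arrays. Reactive replicates 2 and 3 stood well above all non-reactive arrays, while reactive replicate 1 lay only just above them. Prdx4 differed by 1.12 on the log2 scale (SE 0.40, 95% interval 0.16 to 2.07, limma adjusted p = 0.313). Its other 3 probe sets differed by -0.19 to 0.23, and the mean of the 4 gave 0.34.

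Prdx2, a cytosolic peroxiredoxin with the brightest probe set of this class, read 11.37, 11.78 and 11.68 on the reactive and 11.51, 10.77 and 11.22 on the non-reactive arrays. The groups overlapped, and the log2 difference was 0.44 (SE 0.26, 95% interval -0.18 to 1.07). The other Prdx2 probe set differed by -0.60 (SE 0.41). Prdx3, the mitochondrial form, differed by -0.49 (95% interval -1.61 to 0.62).

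Among genes of glutathione synthesis and supply, Gclm differed most. Gclm, the modifier subunit of glutamate-cysteine ligase, read 8.03, 7.88 and 8.61 on the reactive and 10.01, 8.69 and 9.10 on the non-reactive arrays. The reactive values were lower without overlap, although reactive replicate 3 came close to non-reactive replicate 2. The log2 difference was -1.10, or 2.14-fold lower (SE 0.39, 95% interval -2.03 to -0.17, limma adjusted p = 0.306). A second probe set, with values of 3.05 to 4.60, differed by -0.06, and the mean of the pair gave -0.58.

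Gclc, the catalytic subunit of the same ligase, differed by -0.26 (95% interval -0.92 to 0.40) with both of its probe sets below 0. Slc7a11, the light chain of the cystine and glutamate exchanger, was lower without overlap, at 3.71 ± 0.44 against 4.21 ± 0.18 (log2, SD, n = 3), but both means lay under 4.74, the median level of probe sets. Gss, glutathione synthetase, read 6.21, 7.66 and 8.76 on reactive replicates 1, 2 and 3 against 7.14 to 7.55 on the non-reactive arrays. The reactive arrays thus lay on both sides of the non-reactive ones, and the log2 difference was 0.16 (SE 0.61), or -0.45 without reactive replicate 3. Gsr, the reductase, differed by 0.31 (95% interval -0.57 to 1.19).

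All 5 measured glutathione peroxidases had log2 differences above 0, as did 60.7% of all genes, and none passed. Gpx4, which reduces lipid hydroperoxides in membranes, read 13.33, 13.61 and 13.26 on the reactive and 13.06, 13.01 and 13.06 on the non-reactive arrays. The reactive values were higher without overlap, with a log2 difference of 0.36 (SE 0.19, 95% interval -0.11 to 0.82, limma adjusted p = 0.482). The other Gpx4 probe set, also bright, read 12.26, 13.13 and 12.47 on the reactive and 12.27, 11.40 and 11.60 on the non-reactive arrays. Its log2 difference was 0.87 (SE 0.34, 95% interval 0.06 to 1.67, limma adjusted p = 0.345) with overlap, and the mean of the pair gave 0.61. Gpx3, the secreted peroxidase, measured 6.59 ± 0.15 against 5.88 ± 0.23 (log2, SD, n = 3) without overlap, a log2 difference of 0.71 (95% interval 0.20 to 1.22, limma adjusted p = 0.233). Gpx1, the abundant cytosolic form, differed by 0.36 (95% interval -0.38 to 1.10).

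Gpx8, a peroxidase of the endoplasmic reticulum, had the largest difference and the widest reactive spread of the 37 genes. It read 3.18, 5.53 and 7.58 on reactive replicates 1, 2 and 3 and 3.74, 3.85 and 4.39 on the non-reactive arrays. Reactive replicate 1 was the lowest of the 6 arrays and reactive replicate 3 the highest. All 3 non-reactive values and that of reactive replicate 1 lay under 4.74, the median level of probe sets. The log2 difference was 1.44 (SE 1.01, 95% interval -0.98 to 3.85, limma adjusted p = 0.576), and it was 0.36 without reactive replicate 3 and 2.56 without reactive replicate 1. Gpx7, its relative in the same compartment, read 6.62, 6.77 and 8.12 against 6.47 to 6.86, so that reactive replicate 3 again stood apart, and its difference of 0.57 was 0.09 without that array. The same array held the highest of the 6 values for 6 of the 12 vascular markers, among them Cldn5 (9.36, against 4.51 to 5.61 on the other 5 arrays), Kdr (8.73, against 5.41 to 6.29) and Acta2 (8.63, against 4.56 to 5.39). The mean level of the 12 vascular markers was 5.92 on it and 4.85 to 5.25 on the others. The mural markers Pdgfrb and Rgs5 read 6.84 and 6.69 on it, below their non-reactive values of 8.18 to 9.41 and 6.76 to 7.78. Flt1, Vtn, Slco1a4 and Kcnj8 were highest on other arrays, and Tek, Pecam1 and Vtn read below 4.74 on all 6. Reactive replicate 3 was also highest for 12 of 17 microglia and macrophage, 9 of 12 oligodendrocyte and 6 of 10 blood leukocyte markers. It was highest for 1 of 12 astrocyte, 0 of 10 neuronal and 0 of 4 NG2 cell markers. The part of any of these cells in Gpx8 and Gpx7 was not tested.

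Glutathione transferases had differences of both signs. Of 10 measured cytosolic and mitochondrial forms 5 had log2 differences above 0 and 5 below, with a median of -0.08. Over all genes 60.7% were above 0, and the median was 0.12. Gstm1, a mu-class enzyme known from astrocytes, read 9.19, 9.53 and 9.18 on the reactive and 11.67, 9.76 and 10.03 on the non-reactive arrays. The reactive values were lower without overlap, and non-reactive replicate 1 stood far above all other arrays. Gstm1 differed by -1.19 on the log2 scale (SE 0.50, 95% interval -2.39 to 0.01, limma adjusted p = 0.382), and it was -0.59 without non-reactive replicate 1. All 4 Gstm1 probe sets were lower, by -1.48 to -1.19 on the log2 scale, and none of the 4 had overlapping groups. The tightest of them read 6.22, 5.82 and 6.38 against 7.73, 7.06 and 7.43, with a limma adjusted p of 0.104, the smallest of the 73 probe sets of the set. Mu-class genes resemble each other, so how far a Gstm probe set reads its relatives is uncertain.

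Gstm5, the mu-class form with the brightest probe set of this group, read 10.96, 11.71 and 10.78 on the reactive and 12.26, 11.20 and 11.27 on the non-reactive arrays. The groups overlapped, non-reactive replicate 1 was again the highest array, and the log2 difference was -0.43 (SE 0.39). Gstm4 went the other way, at 8.14 ± 0.31 against 7.52 ± 0.18 (log2, SD, n = 3) without overlap, a log2 difference of 0.62 (95% interval 0.05 to 1.18, limma adjusted p = 0.341). Gstz1, which isomerises maleylacetoacetate in tyrosine breakdown, measured 4.60 ± 0.48 against 5.49 ± 0.07 without overlap, a log2 difference of -0.89 (95% interval -1.56 to -0.23, limma adjusted p = 0.251), with its reactive mean under 4.74, the median level of probe sets.

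The theta-class Gstt1 differed by -1.04 (95% interval -2.26 to 0.17), and reactive replicate 2, at 8.58, lay among the non-reactive arrays. Gstp1, the pi-class form, differed by 0.56 (95% interval -0.01 to 1.12), with groups that met at 11.31. Gstk1 differed by -0.74, Gstt2 by 0.72, Gsto1 by 0.36 and Gsta4, which detoxifies lipid aldehydes, by 0.28, all with overlapping groups. The Gstt2 group means, 4.19 and 3.47, lay under 4.74, the median level of probe sets. Gsta4 varied most within the non-reactive group, from 7.25 to 9.75.

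The microsomal transferases are membrane proteins of a separate family. Mgst3 read 9.94, 10.17 and 8.64 on the reactive and 8.64, 8.87 and 8.37 on the non-reactive arrays. Reactive replicates 1 and 2 were higher than every non-reactive array, and replicate 3 was not. Mgst3 differed by 0.96 on the log2 scale (SE 0.42, 95% interval -0.05 to 1.97, limma adjusted p = 0.398). The other Mgst3 probe set, which reads dimmer, differed by 0.50 (SE 0.23) and was higher without overlap, replicate 3 included. Mgst1 differed by 0.45 and Mgst2 by -0.11, both with overlapping groups at their representative probe sets. The other Mgst1 probe set was higher without overlap by 0.35 (SE 0.23). Its group means, 3.55 and 3.20, lay under the median level of probe sets.

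None of the dismutases or catalase had groups without overlap at its representative probe set. Sod1, the cytosolic copper and zinc dismutase, read 12.42, 12.24 and 12.47 on the reactive and 12.27, 12.71 and 12.57 on the non-reactive arrays. The groups overlapped, and the log2 difference was -0.14 (SE 0.21, 95% interval -0.64 to 0.36). Another bright Sod1 probe set read 12.42, 12.75 and 12.15 against 11.86, 11.92 and 12.10, higher without overlap by 0.48 (SE 0.23), so the sign depended on the probe set. Over all 5 Sod1 probe sets the log2 difference ran from -1.59 (SE 0.80, with overlap) to 0.50, and their mean gave -0.087. Sod2, the mitochondrial manganese dismutase, read 10.60, 10.98 and 11.27 against 11.73, 11.53 and 10.92, a log2 difference of -0.45 (SE 0.30, 95% interval -1.15 to 0.26) with overlap. Its other probe sets differed by -1.08 (SE 0.36) and -0.64 (SE 0.47) with overlap and by 0.23 (SE 0.19) without. The mean of all Sod2 probe sets gave -0.48. Sod3, the extracellular form, differed by 0.34 and Cat, the peroxisomal catalase, by -0.27, both with overlapping groups. The other Sod3 probe set differed by -0.575 (SE 0.25) and was lower without overlap. Both Sod3 probe sets had group means under 4.74, the median level of probe sets. The other Cat probe set differed by 0.40 with overlap, so the signs of Sod3 and Cat also depended on the probe set.

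**Figure D3:**
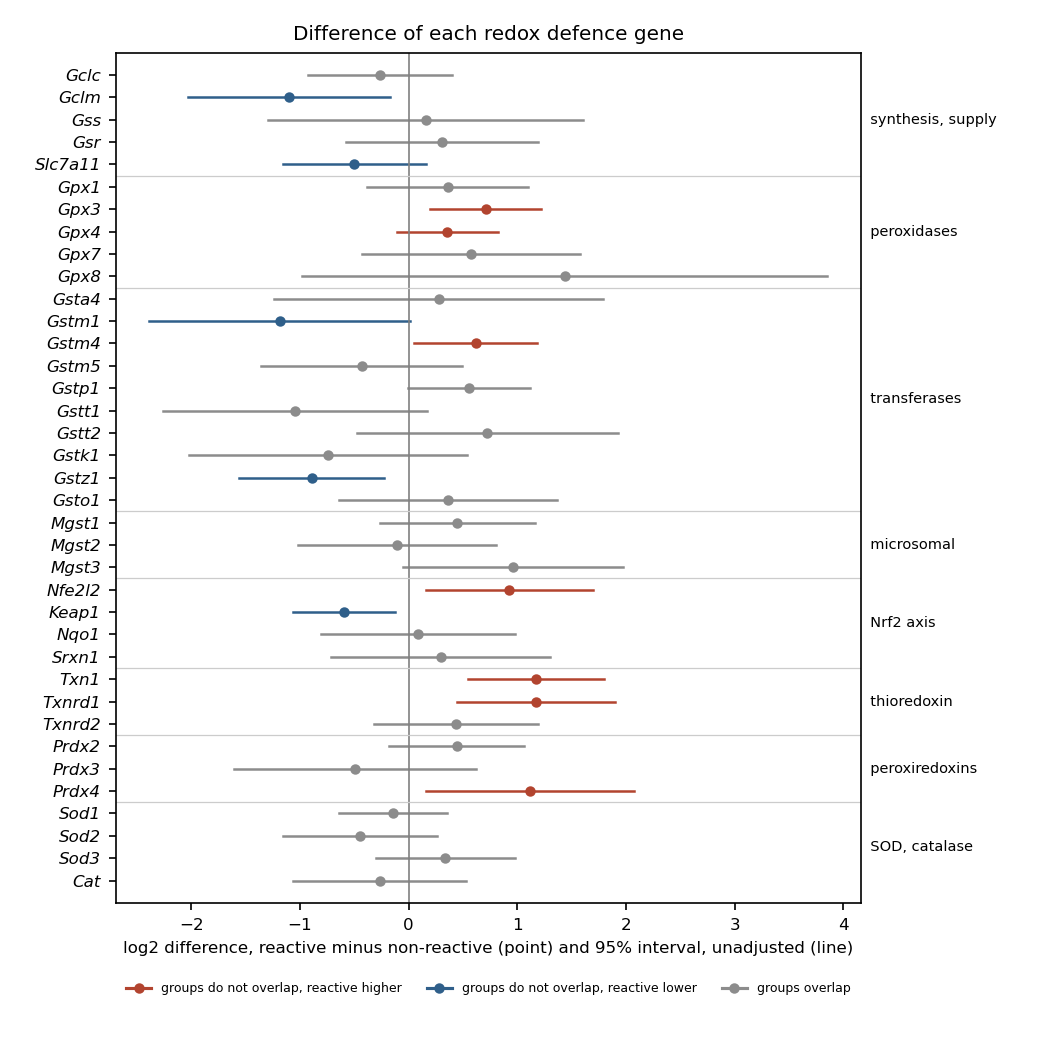
Log2 difference of each of the 37 genes, reactive minus non-reactive, with its unadjusted 95% interval from limma, ordered by role; red marks genes whose groups did not overlap with reactive higher, blue those with reactive lower, grey those with overlap. The 7 red and 5 blue genes are spread over 6 of the 8 roles, and the intervals of Gpx8, Gsta4 and Gss are the widest.

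The reactive arrays varied more. The median SD of the 37 genes was 0.49 on the reactive and 0.28 on the non-reactive arrays, beside 0.40 and 0.28 over all genes, and 23 of the 37 (62.2%) had the larger SD in the reactive group, against 65.9% of all genes. Reactive replicate 3 held the highest of the 6 values for 12 genes, non-reactive replicate 1 for 10, reactive replicate 2 for 7 and reactive replicate 1 for 4. Non-reactive replicates 2 and 3 held it for 2 genes each. How often each array held the highest value over all genes is not given here, for these counts or for the marker counts above.

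Where a gene was measured more than once the probe sets often differed in sign. Of 22 genes with several probe sets, 11 had all log2 differences on 1 side of 0 and 11 did not. Besides Gstm1 and Nfe2l2, no gene with several probe sets had non-overlapping groups in the same direction at all of them. Slc7a11 agreed closely in size, at -0.50 for both of its probe sets, but the groups overlapped at the second. All group means of both lay under 4.74, the median level of probe sets.

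**Figure D4:**
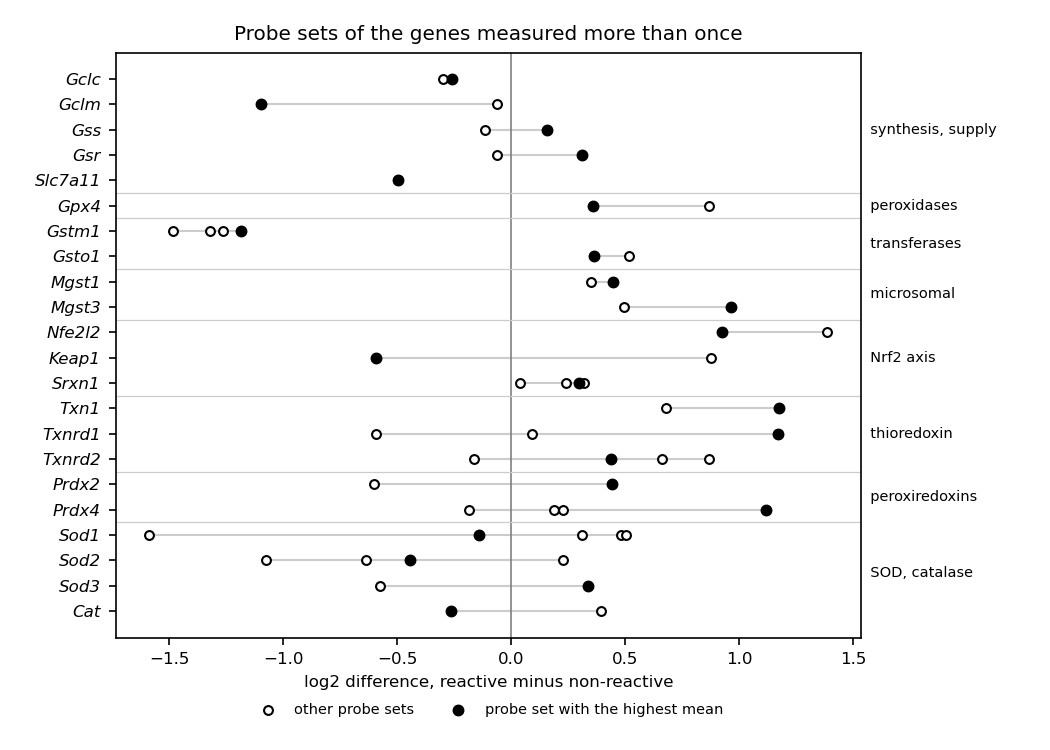
Log2 difference, reactive minus non-reactive, of every probe set of the 22 genes measured more than once; filled points mark the probe set with the highest mean, which represents the gene, and open points the others. The 4 points of Gstm1 lie together between -1.48 and -1.19, whereas those of Keap1, Txnrd1 and Sod1 lie on both sides of 0.

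Other genes of the pathway were described from lists of 87 genes, of which 81 were measured. Of these 0 rose and 0 fell (limma, adjusted p under 0.05), and 19 had an unadjusted p under 0.05 (23.5%, against 15% of all genes), 8 of them higher and 11 lower. Their median log2 difference was -0.02, against 0.12 over all genes.

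The smallest adjusted p among them were those of Cth and Cbs. Cth, which releases cysteine from cystathionine, read 4.79, 5.39 and 3.31 on the reactive and 7.35, 7.27 and 8.08 on the non-reactive arrays. Every reactive value was lower by more than any spread within the non-reactive group. The log2 difference was -3.07, or 8.40-fold lower (SE 0.55, limma adjusted p = 0.0707), and its reactive mean, at 4.49, was under the median level of probe sets. Cbs, the enzyme one step before it, measured 6.67 ± 0.46 against 8.33 ± 0.36 (log2, SD, n = 3), a log2 difference of -1.66 (SE 0.31, limma adjusted p = 0.0824). The mean of the 2 Cbs probe sets gave -1.33. Oplah, which returns oxoproline to glutamate, differed by -1.56 (SE 0.44, limma adjusted p = 0.205). The astrocyte markers were lower on the same arrays, as given above, and their part in these values was not tested.

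Among thiol redox genes Txndc17, a thioredoxin-related protein, differed by 1.28 (SE 0.32, limma adjusted p = 0.161) without overlap. Txnip, the inhibitor of thioredoxin, differed by -0.83 (SE 0.34, limma adjusted p = 0.365) and Selenop, a secreted selenium carrier, by -0.68 (SE 0.21), both without overlap. Averaging the probe sets of a gene gave 0.83 for Txndc17 and -0.44 for Txnip. Among further Nrf2 targets and regulators Bach1, a repressor that competes with Nrf2, read 8.82, 7.68 and 9.18 on the reactive and 7.66, 5.76 and 5.06 on the non-reactive arrays. Its groups did not overlap, though reactive replicate 2 and non-reactive replicate 1 were nearly equal, and the log2 difference was 2.40 (SE 0.72, limma adjusted p = 0.229), or 1.41 when the Bach1 probe sets were averaged. Bach2, its relative, differed by -2.25 (SE 0.73), with reactive replicate 3, at 6.86, close to the non-reactive arrays. Without that array it fell by 3.14 on the log2 scale (limma adjusted p = 0.0415), whereas averaging the Bach2 probe sets gave -1.48, and the difference was -0.31 without the probe sets of suffix _x_at, _s_at or _a_at. Over all alternatives its limma adjusted p ran from 0.0415 to 0.617. Aox1, an aldehyde oxidase, differed by -3.10 (SE 0.73, limma adjusted p = 0.136). Of the 29 measured genes of this list 4 were higher without overlap and 4 lower (13.8% each, against 13.5% and 8.2% of all genes). Maff, Blvrb and Taldo1 were higher without overlap, by 1.07, 1.665 and 1.36. Their limma adjusted p, 0.115, 0.131 and 0.173, were smaller than those of Bach1 and Bach2 in the fit reported. Hmox1, heme oxygenase and a classical Nrf2 target, chosen after its values were seen, read 4.93, 6.71 and 7.36 against 4.87, 4.96 and 4.79, so that reactive replicate 1 lay among the non-reactive arrays.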

How the data were processed

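The authors deposited log2 expression values made with RMA, per the submitters' processing notes, for 6 arrays of 45101 probe sets; its version and settings were not given in the sources used here. RNA was amplified in 2 rounds, per the labels' protocols, and array medians were 4.65 to 4.73. RMA equalises distributions, which hides changes in total RNA. The 64 control probe sets were left out, which left 45037, of which 34945 had 1 gene symbol, 932 several and 9160 none. Gene identifiers of 34741 matched the RefSeq table of GRCm38.p6, which changed 0 symbols.

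The difference between reactive and non-reactive arrays was tested with limma 3.58.1 (lmFit, eBayes; R 4.3.3) on the 6 arrays together with no covariate. Tests were two-sided and p-values were adjusted by Benjamini and Hochberg's method over 45037 probe sets, with 0.05 as threshold. Fold sizes use a limit of 2-fold. The fit was tested on simulated data. The number of arrays limits the precision. The members and lists were chosen with earlier results of these data known, so no list received a test. Values on every array are given for genes past the threshold, for genes without overlap that differed at least 2-fold, and for the brightest and most different gene of each role. Others are given where their groups did not overlap, or were chosen after their values were seen. Of other pathway genes, those past the threshold are named, and up to 3 per list with the largest absolute difference among genes without overlap. Maff, Blvrb, Taldo1 and Hmox1 were added after their values were seen. The labels call the arrays biological replicates from pools. Promoter windows came from RefSeq and were searched in Python 3.11.15.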

Additional observations from a re-analysis of the deposited data

How the results depend on the processing

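The count of redox defence genes past the threshold was 0 in each direction under all 15 alternatives. Over all 18193 genes, 173 passed in the fit reported, but 0 passed with the replicate block or when 1 non-reactive array was left out; in those 4 fits 1909 to 2401 had an unadjusted p under 0.05 in limma, so the 0 of the redox genes there says nothing about them. The smallest limma adjusted p of any of the 37 genes under any of them was 0.0894, for Mgst3. Of the 37 genes 26 kept 1 sign throughout, in the alternatives that measured them. With the mean of all probe sets of a gene the median log2 difference was 0.14, and Keap1 differed by 0.14, Prdx2 by -0.080, Sod3 by -0.12 and Cat by 0.065. Without probe sets of the suffixes _x_at, _s_at and _a_at, which left 32 of the genes, Gss differed by -0.12, Sod1 by 0.48 and Cat by 0.40. With array weights Nqo1 differed by -1e-04. Leaving out 1 array at a time, the median ran from 0.18 to 0.39, the count with an unadjusted p under 0.05 from 3 to 7 higher and from 1 to 3 lower, and the count of other pathway genes past the threshold from 0 to 1, which was Bach2 without reactive replicate 3. The higher count was 3 without non-reactive replicate 2 and the lower count was 1 without non-reactive replicate 1. Over these 6 fits the log2 difference ran from -0.20 to 0.39 for Nqo1, -0.41 to 0.28 for Mgst2, -0.50 to 0.062 for Cat, -0.45 to 0.82 for Gss, -0.16 to 0.64 for Srxn1, -0.074 to 0.62 for Gsr and -0.36 to 0.89 for Gsta4. The causes of these changes were not tested. Same-numbered arrays did not deviate together (correlations of -0.07, -0.11 and 0.04), so the numbers were not taken to pair the samples; with the replicate number as a replicate block, limma called 0 of all 18193 genes, and 7 redox genes were higher and 2 lower at an unadjusted p under 0.05, with a median of 0.31. With 3 arrays a group the intervals of most genes span more than 2-fold. Genes with means below 4.74, the median level of probe sets, may lie where signal and background are hard to part. That level is not a detection limit, and detection was not tested.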
